A study of Homo sapiens with 24 samples.

Results

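The genes described here are 8 genes known from activated fibroblasts: LRRC15, FAP, MRC2, PI15, LINC03033, PDGFRA, PDGFRB and THY1, out of 41258 genes with a probe on the arrays. They were selected on their measured response to Wnt3a in cells without transfection, as genes induced by Wnt3a, so that response is described with no test. HepaRG is a human liver progenitor line that can turn into hepatocyte-like and biliary-like cells. The study asked which changes in its transcriptome after Wnt3a need β-catenin or are blocked by FZD8_CRD, a soluble fragment of the frizzled 8 receptor that binds Wnt proteins. RNA was measured on 24 one-colour Agilent arrays, 3 for each of 8 conditions. Cells were left without transfection, or were transfected with 80 pmol of a control siRNA or of an siRNA against CTNNB1, the gene of β-catenin. Others received 300 ng/ml FZD8_CRD and were also not transfected. Each setting was measured without Wnt3a and with 200 ng/ml Wnt3a, and the labels give 72 h for Wnt3a and FZD8_CRD. Below, untransfected and without transfection name cells with neither siRNA nor FZD8_CRD. All 8 conditions used the same cell line. The name of the group held for 5 of its 8 genes. PDGFRA and PDGFRB showed no rise with Wnt3a. PDGFRA was dim, yet well above background on 18 of 24 arrays, and PDGFRB was well above background on 7. THY1, at the floor on every array, could not be judged.

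Wnt proteins bind frizzled receptors and their co-receptors, which keeps β-catenin from being broken down and lets it act with TCF and LEF factors on target genes. Activated fibroblasts and hepatic myofibroblasts lay down and remodel the collagen of the fibrotic liver and of tumour stroma. FAP is a serine protease of their surface, LRRC15 a surface protein with leucine-rich repeats, MRC2 the endocytic receptor that takes up collagen, and PDGFRA, PDGFRB and THY1 are widely used surface markers of fibroblasts and pericytes.

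Levels are log2 signals relative to the 75th percentile of the same array, so 0 is that percentile and each step of 1 is a doubling. Signals under a floor of -6.13 were set to it, which is 1.43% of the 75th percentile. Between 58.3% and 66.5% of spots on an array were well above background, the scanner software's mark of detection, and the number of arrays limits the precision of every value. FAP and MRC2 were well above background on 24 of 24 arrays, LINC03033 on 24, LRRC15 on 22, PDGFRA on 18, PI15 on 11, PDGFRB on 7 and THY1 on 0. A gene was tested when at least 1 condition had its probe detected in this sense on each of 3 arrays, which 7 of the 8 genes passed. PDGFRB, and TEK and NKD1 among the genes read beside the 8, passed only through the brighter condition of a comparison, so that difference was built into the choice and is only described. PI15 passed through 3 conditions, none with CTNNB1 siRNA or FZD8_CRD, and its p-values without any filter stand beside its knockdown results. THY1 was not tested. Each slide held 1 array of every condition, with the replicate number as the slide. After the mean of each condition was taken off, arrays of the same number had a mean correlation of 0.38 over all genes. The mean of -0.19 for other numbers is largely fixed by the first, since arrays of a condition cancel once their mean is taken off. Values within each slide thus stand beside many results. Adjusted p-values with slide as a block stand beside part of the results of the 8 genes. Other p-values, those of the lists included, leave the slide out. The paper describes its culture work as independent experiments run 3 times, while the labels give replicate numbers only, and p-values measure the spread between these samples of 1 cell line. The third FZD8_CRD array without Wnt3a stood apart, with the largest spread from its condition's median of all 24 arrays (SD 0.443, median over arrays 0.246). Calls for the Wnt3a response with FZD8_CRD are given with and without it, while levels, sums and most described differences include it.

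CTNNB1, the target of the siRNA, averaged 3.41 ± 0.09 (log2 level, SD, n = 3) after control siRNA and 0.38 ± 0.13 after CTNNB1 siRNA. It was 8.19-fold lower without Wnt3a (adjusted p = 1.17e-09) and 8.1-fold lower with it (adjusted p = 7.75e-10). A probe's level is comparable between arrays but not with another probe's, so the brightest gene of a list is the one with the strongest signal and not the one with the most RNA. Changes are differences of log2 levels ± SE between 3 and 3 arrays, with p-values from limma adjusted over all 24643 genes tested and a threshold of 0.05.

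**Figure D1:**
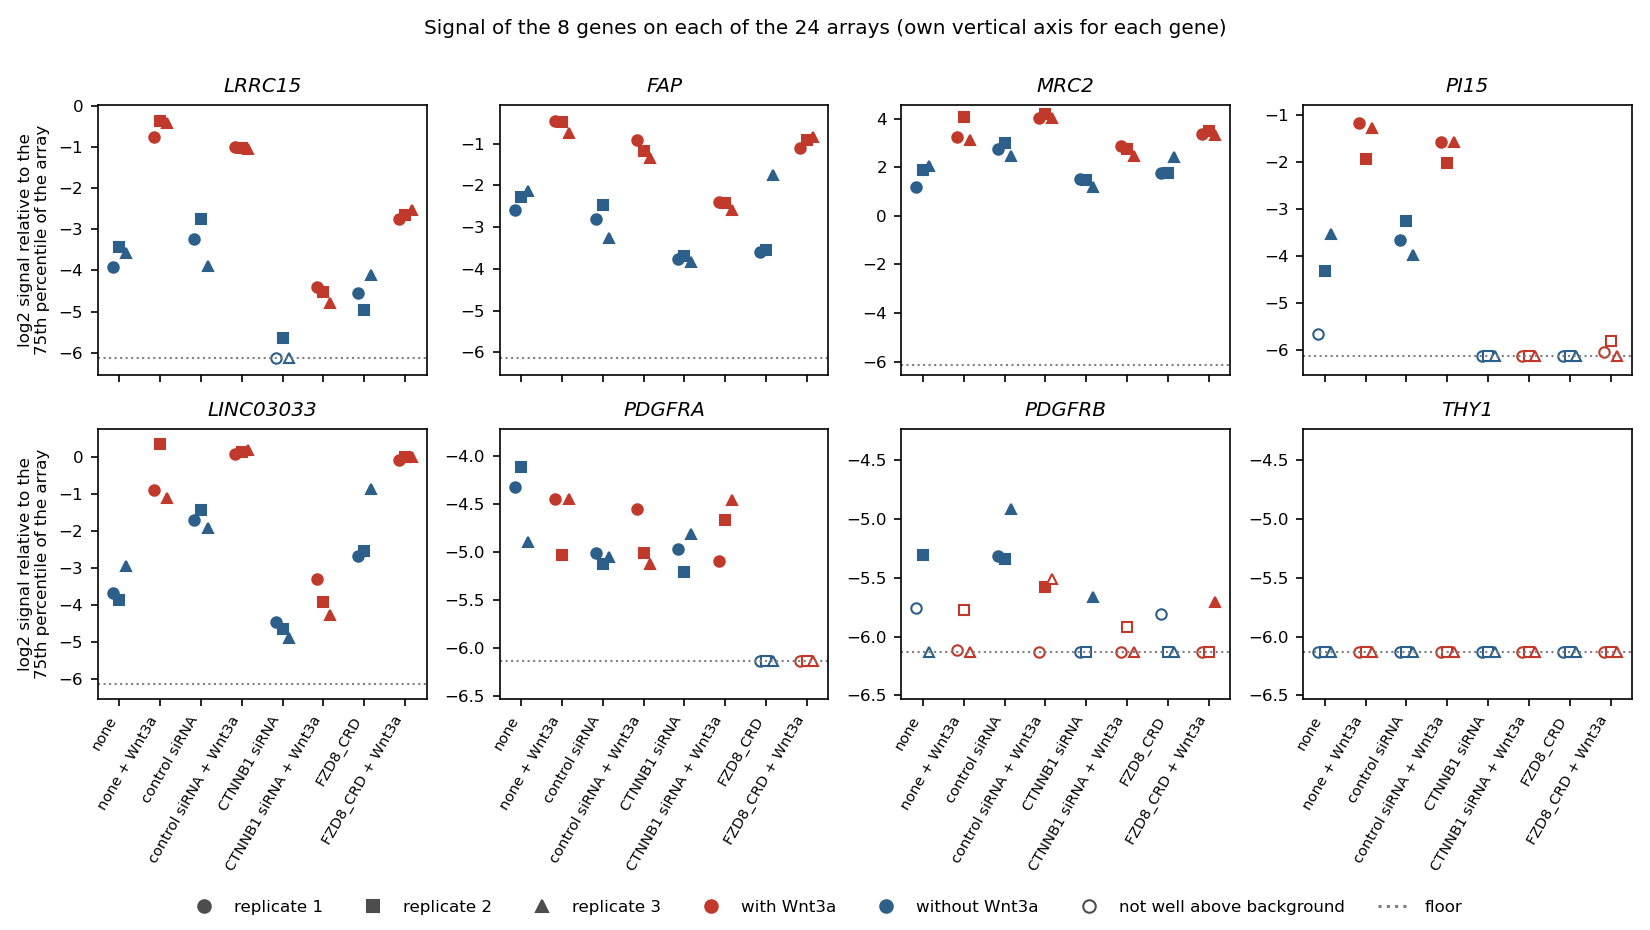
Each panel plots the log2 level of 1 gene on all 24 arrays by condition, with symbols for the 3 replicates, open where the spot was not well above background. LRRC15, FAP, MRC2 and LINC03033 are higher with Wnt3a in every setting, as is PI15 in the 2 settings where it was measured, and THY1 lies at the floor of -6.13 on 24 arrays.

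LRRC15, whose product sits on the surface of activated fibroblasts, rose with Wnt3a after control siRNA and with FZD8_CRD, passed narrowly after CTNNB1 siRNA, and fell with the CTNNB1 siRNA. Without transfection it read -3.93, -3.42 and -3.58 on the arrays without Wnt3a and -0.76, -0.37 and -0.42 on those with it, a described difference of 3.12. After control siRNA it read -3.23, -2.74 and -3.90 without and -1.01, -1.03 and -1.05 with Wnt3a. The arrays with Wnt3a were all higher and lay close together, while the control arrays were spread over more than a doubling. The change was 2.26 ± 0.24 (4.8-fold higher, adjusted p = 9.82e-05), with 2.22, 1.72 and 2.85 within the slides. The adjusted p was 0.000116 with slide as a block and ran from 6.95e-06 to 0.101 over the 20 alternatives tried. The change itself ran from 1.53 to 2.54 over them. After CTNNB1 siRNA it read -6.13, -5.63 and -6.13 without and -4.41, -4.53 and -4.79 with Wnt3a. Only 1 of the 3 arrays without Wnt3a was well above background, and every array with Wnt3a was, and the groups did not overlap. The change there was 1.39 ± 0.24 (adjusted p = 0.0497), with 1.72, 1.1 and 1.35 within the slides, and used the floor for 2 arrays. It ran from 0.45 to 1.56 over the alternatives. Its call was lost in 13 of 20 of them, with adjusted p from 0.027 to 1. Levels with CTNNB1 siRNA differed by -2.67 ± 0.24 without Wnt3a (adjusted p = 1.64e-06), a value that rests on the floor for 2 of 3 knockdown arrays and ran from -2.98 to -0.97 over the alternatives. With Wnt3a, where every array was well above background, they were 11.7-fold lower (-3.55 ± 0.24, adjusted p = 1.17e-08, -3.75 to -2.05 over the alternatives). Both differences were negative in 3 of 3 slides. With Wnt3a the knockdown arrays still lay below those of control siRNA without Wnt3a, with a described difference of -1.28 ± 0.24.

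With FZD8_CRD, LRRC15 read -4.56, -4.96 and -4.11 without and -2.74, -2.65 and -2.53 with Wnt3a. All arrays with Wnt3a were above all without. Every one of them lay below the arrays of Wnt3a alone, on which the genes were selected, so nothing is read from that. The change was 1.90 ± 0.24 (adjusted p = 0.000216), with 1.82, 2.30 and 1.58 within the slides, and 2.12 ± 0.25 (adjusted p = 6.97e-06) without the third FZD8_CRD array. The adjusted p was 0.000243 with slide as a block, 6.97e-06 to 0.195 over the alternatives. The change itself ran from 0.87 to 2.12 over them. Against the untransfected arrays, FZD8_CRD differed by -0.90 without Wnt3a (-1.11 without the third FZD8_CRD array) and by -2.12 with it, as a description. In the order of condition means, Wnt3a alone stood first, then control siRNA with Wnt3a, then FZD8_CRD with Wnt3a, without overlap between these neighbours. Selection of the genes on the arrays of Wnt3a alone favours a high place for them, in this and the other orders. Control siRNA and no transfection overlapped next, FZD8_CRD and CTNNB1 siRNA with Wnt3a overlapped after them, and CTNNB1 siRNA alone stood last and apart.

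The promoters of LRRC15 and LINC03033, the pair with the largest falls after knockdown with Wnt3a among genes well above background on every array compared, are shown because both fell with the knockdown. The pair's differences between FZD8_CRD and the untransfected arrays use arrays on which the genes were selected, so their signs are not compared. The windows are the 250 bases before the start in RefSeq (GRCh38.p14), at chr3:194369744-194369993 on the - strand for LRRC15 and chr14:61570290-61570539 on the + strand for LINC03033. Capitals mark matches, on either strand, to CTTTGAT or CTTTGTT, core letters bound by TCF and LEF factors, or to TGANTCA, those of AP-1 factors.
LRRC15: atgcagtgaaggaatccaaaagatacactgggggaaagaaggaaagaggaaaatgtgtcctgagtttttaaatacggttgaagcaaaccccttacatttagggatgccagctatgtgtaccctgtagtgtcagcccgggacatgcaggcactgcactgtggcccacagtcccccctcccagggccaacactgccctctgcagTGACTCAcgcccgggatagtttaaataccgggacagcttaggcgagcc
LINC03033: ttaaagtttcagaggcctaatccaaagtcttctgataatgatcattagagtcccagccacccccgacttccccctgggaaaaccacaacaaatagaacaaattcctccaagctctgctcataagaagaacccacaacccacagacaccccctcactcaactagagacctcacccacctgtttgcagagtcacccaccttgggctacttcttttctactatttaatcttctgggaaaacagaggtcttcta
LRRC15 held 1 match to TGANTCA, 48 bases before the start, and none to the others, and LINC03033 held none of the 3. PDGFRA, for which no Wnt3a test passed, also held 1 match to TGANTCA, 32 bases before 1 of its 2 starts, and PDGFRB held none. Of 35116 windows of that length, 2.26% held CTTTGAT, 4.5% CTTTGTT and 6.57% TGANTCA. RefSeq windows were at hand for 4 of the 8 genes. A match is a description of letters, and no match says only that they are not in that window.

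FAP, the surface protease that also cleaves denatured collagen, rose with Wnt3a after control siRNA and with FZD8_CRD. Without transfection it read -2.60, -2.28 and -2.14 without and -0.46, -0.48 and -0.74 with Wnt3a, a described difference of 1.78. After control siRNA it read -2.80, -2.48 and -3.26 without and -0.91, -1.18 and -1.35 with Wnt3a. The groups did not overlap. The change was 1.69 ± 0.32 (3.24-fold higher, adjusted p = 0.00941), with 1.88, 1.30 and 1.91 within the slides. The adjusted p was 0.00781 with slide as a block, 0.00199 to 0.316 over 21 alternatives. After CTNNB1 siRNA it read -3.75, -3.68 and -3.84 without and -2.39, -2.42 and -2.58 with Wnt3a. All 3 arrays with Wnt3a were higher, by 1.36, 1.27 and 1.26 within the slides. The change of 1.30 ± 0.32 did not pass the test (adjusted p = 0.178; 0.0983 with slide as a block, 0.0057 to 1 over the alternatives). With Wnt3a, FAP was 2.48-fold lower after CTNNB1 siRNA than after control siRNA (-1.31 ± 0.32, adjusted p = 0.01; -1.47, -1.23 and -1.22 within the slides), and without Wnt3a the difference of -0.91 ± 0.32 did not pass (adjusted p = 0.0757). The knockdown arrays with Wnt3a stood 0.38 ± 0.32 above control siRNA without Wnt3a, as a description.

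With FZD8_CRD, FAP read -3.60, -3.55 and -1.75 without and -1.09, -0.92 and -0.85 with Wnt3a. The third array without Wnt3a was more than 3 times as bright as the others, yet below every array with Wnt3a. The change was 2.01 ± 0.32 (adjusted p = 0.00129), with 2.51, 2.63 and 0.90 within the slides, and 2.62 ± 0.18 (adjusted p = 1.39e-08) without that array. The adjusted p was 0.00142 with slide as a block, 1.39e-08 to 0.366 over the alternatives. Described against the untransfected arrays, FAP with FZD8_CRD differed by -0.62 without Wnt3a (-1.23 without the third FZD8_CRD array) and by -0.39 with it. FAP with FZD8_CRD and Wnt3a overlapped control siRNA with Wnt3a, both just below Wnt3a alone, which stood first and apart. That first place was favoured by the selection of the genes. Untransfected cells, CTNNB1 siRNA with Wnt3a, control siRNA and FZD8_CRD followed, each overlapping its neighbour, and CTNNB1 siRNA alone was last and apart.

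MRC2, the collagen uptake receptor, was well above background on every array and lay higher with Wnt3a in every setting. Without transfection it read 1.19, 1.87 and 2.04 without and 3.25, 4.07 and 3.1 with Wnt3a, a described difference of 1.77. After control siRNA it read 2.75, 2.99 and 2.47 without and 4.03, 4.17 and 4.03 with Wnt3a. After CTNNB1 siRNA it read 1.51, 1.48 and 1.19 without and 2.88, 2.74 and 2.45 with Wnt3a. In both settings each array with Wnt3a was above each without. The change after control siRNA was 1.34 ± 0.23 (2.54-fold higher, adjusted p = 0.0063), with 1.28, 1.18 and 1.56 within the slides. With slide as a block its adjusted p was 0.00351, 0.00351 to 0.225 over the alternatives. The change after CTNNB1 siRNA was 1.30 ± 0.23 (adjusted p = 0.0499), with 1.38, 1.26 and 1.26 within the slides, and its call was lost in 15 of 21 alternatives (adjusted p from 0.0274 to 1). The knockdown itself lowered MRC2 2.54-fold without Wnt3a (-1.35 ± 0.23, adjusted p = 0.000751) and 2.62-fold with it (-1.39 ± 0.23, adjusted p = 0.000447), in 3 of 3 slides each, with -1.48 to -1.22 and -1.59 to -1.27 over the alternatives. Knockdown with Wnt3a and control siRNA without it overlapped, with a described difference of -0.05 ± 0.23.

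With FZD8_CRD, MRC2 read 1.76, 1.78 and 2.42 without and 3.39, 3.48 and 3.31 with Wnt3a. The groups did not overlap, with the third array again the brightest of those without Wnt3a. The change was 1.40 ± 0.23 (adjusted p = 0.00162), with 1.63, 1.70 and 0.89 within the slides, and 1.62 ± 0.24 (adjusted p = 7.95e-05) without that array. Its adjusted p with slide as a block was 0.00129, 7.95e-05 to 0.333 over the alternatives. From the untransfected arrays, MRC2 with FZD8_CRD differed by a described 0.29 without Wnt3a (0.07 without the third FZD8_CRD array) and by -0.08 with it. The 3 highest condition means were those of control siRNA, no transfection and FZD8_CRD with Wnt3a, each overlapping the next. Control siRNA overlapped CTNNB1 siRNA with Wnt3a below them, and FZD8_CRD, no transfection and CTNNB1 siRNA formed a lowest group of overlapping neighbours.

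PI15, a secreted protein of the cysteine-rich CAP family, was measured in 4 conditions, and no array with CTNNB1 siRNA or FZD8_CRD had it well above background. Without transfection it read -5.67, -4.32 and -3.53 without Wnt3a, where 2 of 3 arrays were well above background, and -1.17, -1.94 and -1.27 with it, a described difference of 3.05. After control siRNA it read -3.66, -3.26 and -3.98 without and -1.57, -2.01 and -1.57 with Wnt3a. The groups did not overlap. The change was 1.92 ± 0.34 (3.78-fold higher, adjusted p = 0.00689), with 2.09, 1.25 and 2.41 within the slides. With slide as a block its adjusted p was 0.0054, 0.00196 to 0.173 over the alternatives. The change itself ran from 1.16 to 2.25 over them. On the 6 arrays with CTNNB1 siRNA, and on the 3 with FZD8_CRD and no Wnt3a, it lay at the floor of -6.13, and with FZD8_CRD and Wnt3a it read -6.05, -5.81 and -6.13. These arrays were all below background, so no response to Wnt3a could be given there. Where one group is below background, the fold is a bound: the brighter group's mean against the dim group's mean of, for each array, the higher of its lowest signal among probes well above background and the dim probe's own. The floor is the median of those lowest signals over all arrays, so on arrays where it lies above their own a bound can exceed the fold between floored levels. PI15 was at least 6.35-fold lower with CTNNB1 siRNA without Wnt3a (adjusted p = 8.47e-05, 0.000442 with no filter) and at least 18.2-fold lower with it (adjusted p = 6.05e-08, 1.31e-06 with no filter), in 3 of 3 slides each. Over the alternatives this log2 difference ran from -5.72 to -1.10 without Wnt3a and from -6.74 to -1.98 with it. The bounds for the knockdown thus hold only for the main processing. Described against the untransfected arrays, PI15 was at least 3.2-fold lower with FZD8_CRD and at least 23.6-fold lower with FZD8_CRD and Wnt3a. Wnt3a alone and control siRNA with Wnt3a overlapped at the top, and control siRNA and no transfection overlapped below them, apart from the rest.

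LINC03033, a long non-coding RNA, had the largest measured fall with CTNNB1 siRNA and Wnt3a among the 8 genes, bounds aside. Without transfection it read -3.66, -3.86 and -2.94 without and -0.89, 0.37 and -1.09 with Wnt3a, a described difference of 2.95. After control siRNA it read -1.68, -1.43 and -1.92 without and 0.09, 0.15 and 0.20 with Wnt3a. The control siRNA arrays lay above the untransfected ones without Wnt3a, by a described 1.81, and those with Wnt3a were again all higher. The change was 1.82 ± 0.39 (3.53-fold higher, adjusted p = 0.0205), with 1.77, 1.57 and 2.11 within the slides. With slide as a block its adjusted p was 0.0179, 0.00593 to 0.335 over the alternatives. After CTNNB1 siRNA it read -4.44, -4.63 and -4.87 without and -3.28, -3.90 and -4.25 with Wnt3a. Those with Wnt3a were higher without overlap, but the change of 0.84 ± 0.39 did not pass the test (adjusted p = 0.469). It was 1.16, 0.73 and 0.62 within the slides, and its adjusted p with slide as a block was 0.337. CTNNB1 siRNA lowered it 7.85-fold without Wnt3a (-2.97 ± 0.39, adjusted p = 6.37e-05) and 15.5-fold with it (-3.96 ± 0.39, adjusted p = 1.72e-06), in 3 of 3 slides each, with -3.09 to -1.70 and -4.25 to -2.77 over the alternatives. With Wnt3a the knockdown arrays stayed below control siRNA alone, with a described difference of -2.14 ± 0.39.

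With FZD8_CRD, LINC03033 read -2.68, -2.52 and -0.86 without and -0.07, 0.02 and 0.02 with Wnt3a. Arrays with Wnt3a were all higher and close together, and the third array without it lay between the others and them. The change was 2.01 ± 0.39 (adjusted p = 0.00451), with 2.60, 2.54 and 0.88 within the slides, and 2.59 ± 0.34 (adjusted p = 1.94e-05) without that array. Its adjusted p with slide as a block was 0.00444, 1.94e-05 to 0.446 over the alternatives. LINC03033 with FZD8_CRD differed from the untransfected arrays by a described 1.47 without Wnt3a (0.89 without the third FZD8_CRD array). With Wnt3a, where the groups overlapped, the described difference was 0.53. Control siRNA with Wnt3a had the highest mean, just above FZD8_CRD with Wnt3a, which overlapped Wnt3a alone. Control siRNA and FZD8_CRD overlapped next, then no transfection and CTNNB1 siRNA with Wnt3a, and CTNNB1 siRNA was lowest and apart. A second probe of the gene followed the first over the 24 arrays (r = 0.99 across samples, as a description) and gave 1.75 ± 0.45 after control siRNA (adjusted p = 0.0489), 0.47 ± 0.45 after CTNNB1 siRNA (adjusted p = 0.835) and 2.15 ± 0.45 with FZD8_CRD (adjusted p = 0.00691).

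**Figure D2:**
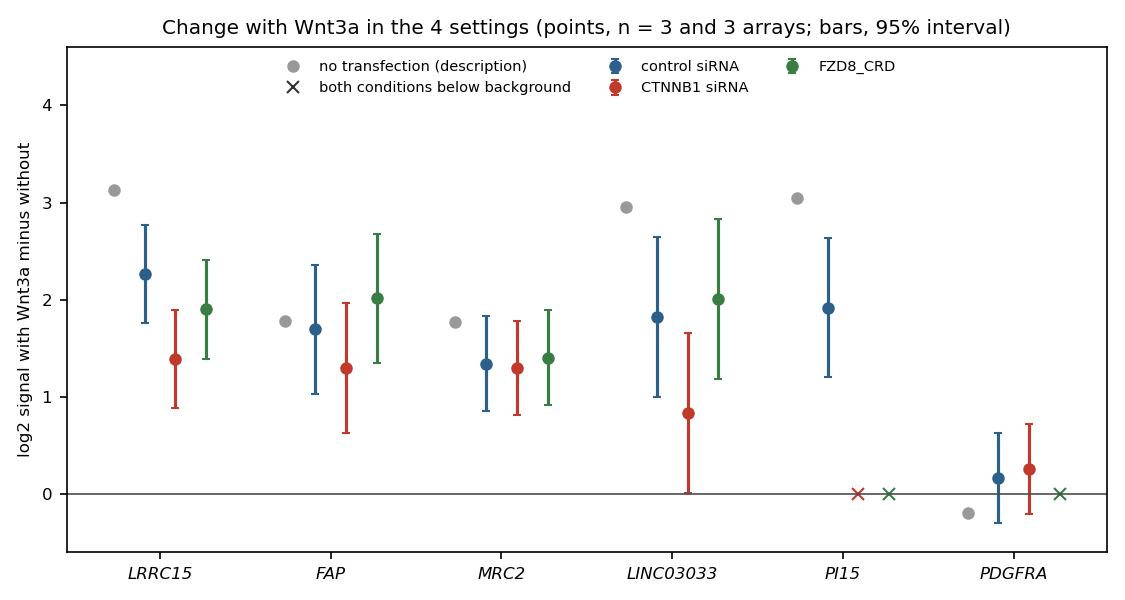
Points are log2 changes with Wnt3a (3 against 3 arrays) in the 4 settings, with 95% intervals where tested, and crosses mark settings in which both conditions were below background. The changes of FAP and MRC2 lie between 1.30 and 2.01 in every setting, while PDGFRA stays between -0.20 and 0.26.

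PDGFRA and PDGFRB did not rise like the other 5 genes, and THY1 could not be read. PDGFRA, a receptor tyrosine kinase for platelet-derived growth factors, read -4.32, -4.12 and -4.89 without transfection, -4.44, -5.03 and -4.44 with Wnt3a, -5.01, -5.12 and -5.05 after control siRNA and -4.55, -5.01 and -5.12 after control siRNA with Wnt3a. It read -4.97, -5.21 and -4.81 after CTNNB1 siRNA and -5.10, -4.67 and -4.46 with Wnt3a added. These 6 conditions lay close to the floor and each overlapped the next in the order of means. The changes with Wnt3a were 0.17 ± 0.22 after control siRNA (adjusted p = 0.903, 95% interval -0.29 to 0.63) and 0.26 ± 0.22 after CTNNB1 siRNA (adjusted p = 0.792, -0.20 to 0.72), and the knockdown gave 0.06 ± 0.22 and 0.16 ± 0.22 (adjusted p = 0.943 and 0.816). On all 6 arrays with FZD8_CRD it was below background, at least 3.34-fold lower than without transfection and at least 2.71-fold lower with Wnt3a, as descriptions. The upper ends of its intervals lay below the smallest Wnt3a change of the 5 other genes after control siRNA, the 1.34 of MRC2.

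PDGFRB, the sister receptor that marks pericytes and stellate cells, was well above background on 3 of 3 arrays in 1 condition only, control siRNA without Wnt3a, at -5.32, -5.34 and -4.91. Its other 21 values lay between the floor and -5.30, with 4 of those arrays well above background. Since it was tested only because of that condition, lower values elsewhere were built in. Described against it, PDGFRB differed by -0.79 with CTNNB1 siRNA, where 1 of 3 arrays was well above background, with -0.82, -0.79 and -0.75 within the slides, and by -0.55 with control siRNA and Wnt3a. In its order of means each condition overlapped the next. THY1, a small surface glycoprotein of fibroblasts, read the floor on all 24 arrays, so nothing can be said of its changes. In bulk RNA, fewer cells of a type and less RNA per cell cannot be told apart for any of the 8 genes.

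Counted over the group, Wnt3a after control siRNA raised 5 of the 7 tested genes (1.09% of all genes rose) and lowered 0 (1.02% of all genes fell), with a median change of 1.76 without PDGFRB, against 0.02 over all genes. The 5 were LRRC15, FAP, MRC2, PI15 and LINC03033, and the count with slide as a block was also 5. The count depended on which arrays were used: 0 of 7 passed without replicate 1, 1 without replicate 2 (LRRC15), 1 without the third control siRNA array (LRRC15) and 3 without the second array of control siRNA with Wnt3a (LRRC15, MRC2 and PI15). Without the first array of either condition, or the third with Wnt3a, it was 4, as LINC03033 lost its call, though none of the 5 values changed sign in these 9 fits. Calls fell in number over the whole array too, from 520 genes in either direction to 4 without replicate 1 and 12 without replicate 2. They numbered 57 without the third control siRNA array and 85 without the second with Wnt3a. Whether the 8 genes lost calls more often than other called genes was not tested. Over the 9 fits the number ran from 4 to 574, and which of the 520 kept their call was not counted.

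After CTNNB1 siRNA, Wnt3a raised 2 of the 7, LRRC15 and MRC2 (0.0365% of all genes rose, which is 9 genes), and lowered 0 (0.00406% fell, 1 gene), while 4 had an unadjusted p under 0.05. Both adjusted p-values lay close to 0.05. With slide as a block they were 0.027 and 0.0274, and over the alternatives they ran from 0.027 to 1 for LRRC15 and from 0.0274 to 1 for MRC2. The count was 0 without replicate 1 and 0 without replicate 2, 3 without replicate 3, 0 or 1 without any single knockdown array without Wnt3a, and 0 without any single one with Wnt3a, in fits where 0 to 96 of all genes were called. The median change was 0.84 (1.07 without PI15, which was below background in both conditions, and with PDGFRB at its bound) against 0.03 over all genes. Whether the response differed between the siRNAs was tested directly: 0 of the 7 passed with limma (0.00406% of all genes passed as higher and 0.0122% as lower, 4 genes in all), and 2 had an unadjusted p under 0.05, LRRC15 and PI15. For LRRC15 the response with CTNNB1 siRNA minus that with control siRNA was -0.87 ± 0.34 (95% interval -1.59 to -0.16, adjusted p = 1), with -0.50, -0.61 and -1.51 within the slides. It rests on the floor for 2 of 3 knockdown arrays without Wnt3a and ran from -1.20 to -0.56 over the alternatives. With slide as a block its adjusted p was 0.777. The value for PI15 compares a response with arrays at the floor and is not given. For LINC03033 the difference was -0.98 ± 0.56 (95% interval -2.15 to 0.18, adjusted p = 1; -1.28 to -0.73 over the alternatives), for FAP -0.40 ± 0.45 (-1.34 to 0.55, adjusted p = 1; alternatives -0.69 to -0.19) and for MRC2 -0.04 ± 0.33 (-0.73 to 0.64, adjusted p = 1; alternatives -0.34 to 0.09). These intervals are wide, and a p that misses the threshold does not show that the responses were alike.

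With FZD8_CRD, Wnt3a raised 4 of the 7, LRRC15, FAP, MRC2 and LINC03033 (4.36% of all genes rose), and lowered 0 (3.94% fell), with a median of 1.40 against 0.02. PI15 and PDGFRA, below background on all 6 arrays, had no response to count, and without them the median of the other 5 was 1.90. Without the third FZD8_CRD array the count was also 4, with 8.69% of all genes higher. It was 0 without replicate 1, 0 without replicate 2 and 3 without the first FZD8_CRD array, where LINC03033 lost its call, in fits where 0 to 5327 of all genes were called. FZD8_CRD and its response share no array with the siRNA conditions, and its difference from the untransfected response was not tested. Within the slides, the response with FZD8_CRD minus that without it was -1.35, -0.75 and -1.58 for LRRC15, -0.44, -0.50 and -0.17 for MRC2, -0.17, -1.69 and -0.96 for LINC03033 and 0.37, 0.83 and -0.50 for FAP. The last value of each uses the third FZD8_CRD array. The genes were selected on the response subtracted here, which pushes such values, and differences from Wnt3a alone, downwards, so nothing is read from their signs.

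Without Wnt3a the CTNNB1 siRNA lowered 4 genes, LRRC15, MRC2, PI15 and LINC03033 (6.17% of all genes fell), and raised 0 (4.4% rose), with PDGFRB, whose difference was built in, left out of the count. With Wnt3a it lowered 5 (6.5% fell), LRRC15, FAP, MRC2, PI15 and LINC03033, and raised 0 (4.08% rose). FAP with Wnt3a lost its call without replicate 1 or replicate 2. As a description, the medians were -1.92 for the 6 genes without PDGFRB and -1.39 for the 7 with Wnt3a, against -0.03 and -0.01 over all genes. Comparisons that share arrays are not independent: the knockdown comparisons and the Wnt3a responses use the same siRNA arrays. The direction of each call was seen in 3 of 3 slides. With slide as a block, the highest adjusted p among these knockdown calls was 0.000485 without Wnt3a (MRC2) and 0.00984 with it (FAP).

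**Figure D3:**
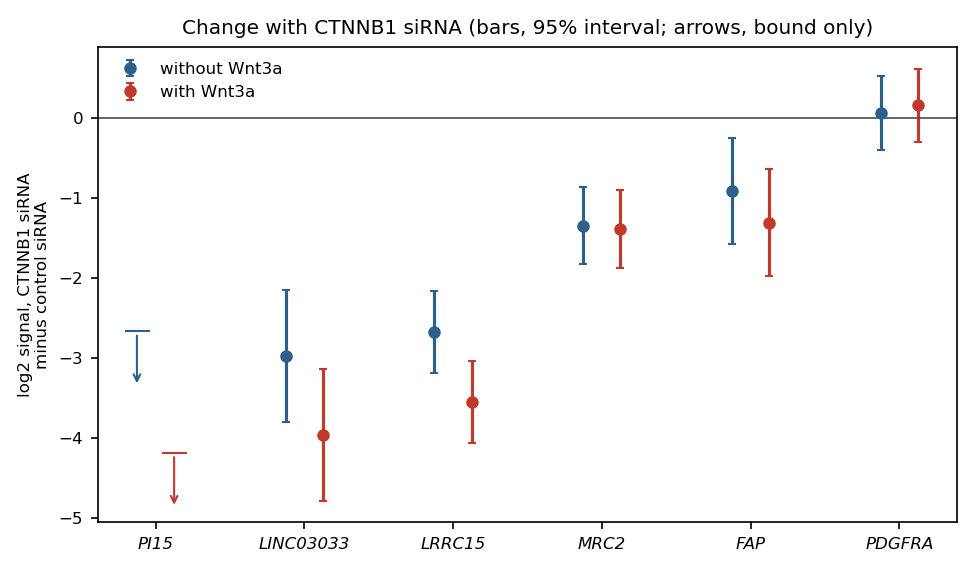
Points are log2 levels with CTNNB1 siRNA minus control siRNA (3 against 3 arrays), without and with Wnt3a, with 95% intervals, and arrows show bounds for PI15. LRRC15 and LINC03033 lie between -2.67 and -3.96, MRC2 and FAP between -0.91 and -1.39, and PDGFRA near 0.

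Among 25 other genes of fibroblast activation, 21 were tested, and COL11A1, GREM1, LOX and MMP11 were not well above background in any whole condition. After control siRNA, Wnt3a raised 6 of the 21, the collagens COL1A1, COL1A2 and COL3A1, the collagen-modulating secreted protein CTHRC1, fibronectin (FN1) and the matrix protein SPARC, and lowered the calcium-binding protein S100A4, while 14 did not pass. Of all genes, 1.09% rose and 1.02% fell. COL1A1 changed by 2.19 ± 0.33 (adjusted p = 0.00277), CTHRC1 by 2.08 ± 0.29 (adjusted p = 0.00158), and S100A4 by -0.45 ± 0.11 (adjusted p = 0.0361). The smooth muscle actin gene ACTA2 differed by 0.16 ± 0.06 (adjusted p = 0.202), which did not pass. The list's median was 0.71 against 0.02 over all genes. After CTNNB1 siRNA, 0 of the 21 passed with limma and 7 had an unadjusted p under 0.05, with a median of 0.19 (0.29 without the gene below background in both conditions) against 0.03. The share of all genes that rose there was 0.0365%. COL1A1 there differed by 0.54 ± 0.33 (adjusted p = 0.633), TNC, a matrix protein of wounds, by 1.29 ± 0.49 (adjusted p = 0.354), and the matrix protein POSTN by 1.62 ± 0.37 (adjusted p = 0.129). For the difference in response between both siRNAs, 0 of the 21 passed with limma and 6 had an unadjusted p under 0.05. These counts moved with the arrays used: when a replicate or an array was left out, the number raised ran from 0 to 7 after control siRNA, 0 to 2 after CTNNB1 siRNA and 0 to 12 with FZD8_CRD, and the number lowered by the knockdown from 2 to 6 without and 5 to 11 with Wnt3a.

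With FZD8_CRD, Wnt3a raised 11 of the 21 (4.36% of all genes rose) and lowered S100A4 (3.94% fell), with a median of 0.67 against 0.02. The 11 were ACTA2, COL1A1, COL1A2, CTHRC1, FN1, PDPN, POSTN, SPARC, TAGLN, TNC and VIM, and the same 11 passed without the third FZD8_CRD array, where LUM fell too and the median was 0.81. TNC changed by 2.94 ± 0.49 (adjusted p = 0.00175), the actin-binding protein TAGLN by 1.97 ± 0.37 (adjusted p = 0.00331), ACTA2 by 0.26 ± 0.06 (adjusted p = 0.0121) and COL1A1 by 2.65 ± 0.33 (adjusted p = 0.000216). The CTNNB1 siRNA without Wnt3a lowered 6 (DCN, LUM, S100A4, SPARC, TAGLN and VIM), raised the secreted matrix protein CCN2 and had a median of -0.22 against -0.03. There 6.17% of all genes fell and 4.4% rose. With Wnt3a it lowered 11 (COL1A1, COL1A2, COL3A1, CTHRC1, DCN, FN1, LUM, SPARC, TAGLN, VIM and WNT5A) and raised 0, with a median of -0.72 against -0.01. In that comparison 6.5% of all genes fell and 4.08% rose. CTHRC1 was well above background on 15 of 24 arrays and on none with CTNNB1 siRNA, so its fall rests on the floor and its size is not known. The small proteoglycan DCN, the list's brightest gene, fell by 1.80 (adjusted p = 1.94e-06) and COL1A2 by 1.75 (adjusted p = 6.31e-05). The summed signal of the 21 genes, as a percent of the 75th percentile, was 7088, 8050 and 5946 after control siRNA and 10760, 11522 and 10361 with Wnt3a added. It was 5363, 5216 and 4695 after CTNNB1 siRNA and 9180, 8373 and 7249 with Wnt3a. In both settings all sums with Wnt3a were higher, as for FAP and MRC2. The sums were 7799, 9589 and 8496 without transfection, 13400, 14976 and 13532 with Wnt3a, 6455, 6382 and 8529 with FZD8_CRD and 13402, 12962 and 12122 with both.

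**Figure D4:**
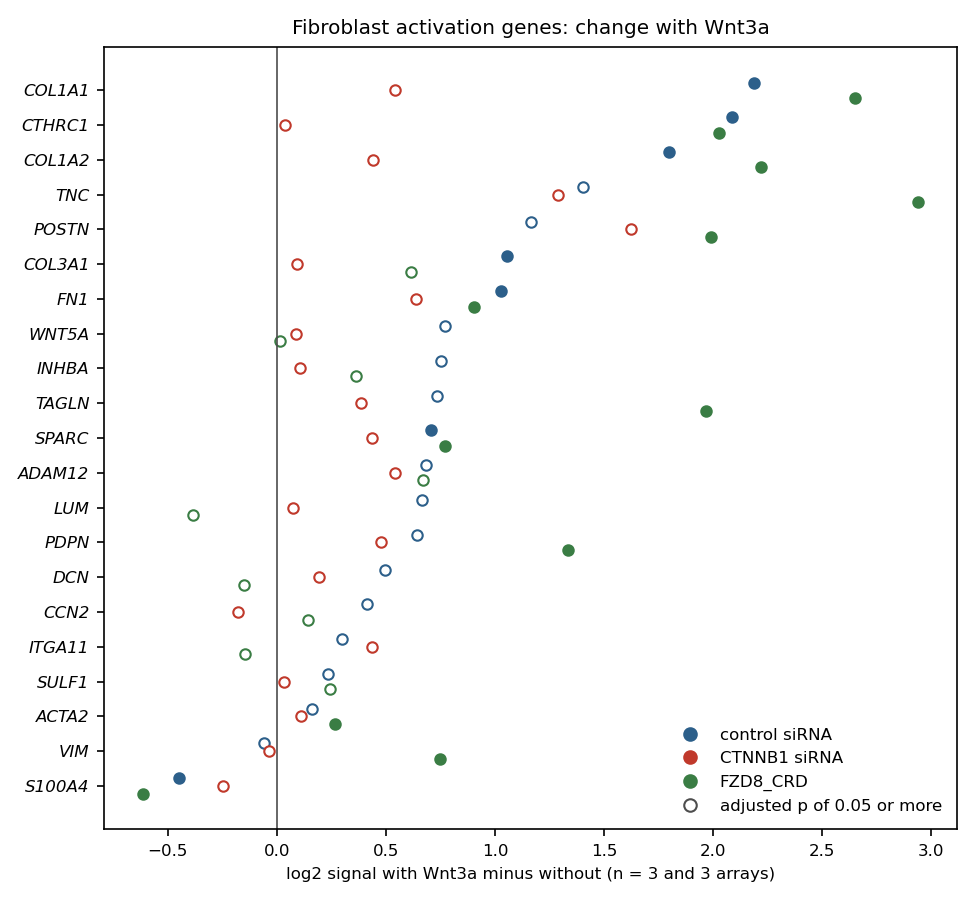
Each point is the log2 change with Wnt3a (3 against 3 arrays) of 1 of 21 fibroblast activation genes after control siRNA, after CTNNB1 siRNA or with FZD8_CRD, filled where the adjusted p was under 0.05. Filled points number 7 after control siRNA, 0 after CTNNB1 siRNA and 12 with FZD8_CRD.

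Other genes of the Wnt pathway were read beside the 8, with DKK1 the brightest. Of 9 tested Wnt feedback and target genes (of 12; NOTUM, TNFRSF19 and LGR5 were not tested), Wnt3a after control siRNA raised 4, AXIN2, LEF1, RNF43 and TCF7, with a median of 0.36 without NKD1. RNF43, the ubiquitin ligase that removes frizzled receptors, changed by 1.02 ± 0.10 (adjusted p = 9.77e-05), and AXIN2, the scaffold of β-catenin breakdown, by 0.60 ± 0.10 (adjusted p = 0.00662). After CTNNB1 siRNA 0 of the 9 passed (1 with an unadjusted p under 0.05; median 0.00), and RNF43 was 1 of the 4 genes of the whole array whose response differed between both siRNAs. With FZD8_CRD, RNF43 and TCF7 rose, APCDD1 and DKK1 fell, and AXIN2 differed by 0.13 ± 0.10 (adjusted p = 0.58), the median being 0.02, and the same 4 passed without the third FZD8_CRD array. The knockdown lowered DKK1, LEF1, RNF43, TCF7 and ZNRF3 without Wnt3a, and AXIN2, LEF1, RNF43, TCF7 and ZNRF3 with it, and raised 0 (NKD1, lower with it, passed the filter only through control siRNA with Wnt3a and is not counted), with medians of -0.50 and, without NKD1, -0.69. With genes below background at their bound or left out, the medians for CTNNB1 siRNA, FZD8_CRD and the knockdown without Wnt3a became 0.01, 0.08 and -0.55.

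Partners of the receptors and of collagen uptake were on the array too. Of 5 genes for platelet-derived growth factors and a receptor-like protein, 5 were tested, and Wnt3a raised the ligand PDGFC after control siRNA (0.47 ± 0.09, adjusted p = 0.00737; list median 0.18) and PDGFC and PDGFRL with FZD8_CRD (PDGFRL 1.33 ± 0.25, adjusted p = 0.00376; median 0.42). After CTNNB1 siRNA 0 of 5 passed (1 with an unadjusted p under 0.05; median -0.14), and the knockdown lowered 0 without Wnt3a (2 with an unadjusted p under 0.05; median -0.18) and PDGFRL with it (-0.84 ± 0.25, adjusted p = 0.0376; median -0.33). Without the third FZD8_CRD array PDGFB rose and PDGFD fell too. Of 10 genes of collagen uptake and breakdown, Wnt3a raised the gelatinase MMP2 after control siRNA (1.09 ± 0.20, adjusted p = 0.0072; median 0.20), none after CTNNB1 siRNA (3 with an unadjusted p under 0.05; median 0.09) and CTSK, MMP2, PLAU and PLAUR with FZD8_CRD, where CTSD fell (median 0.41). Without the third FZD8_CRD array CTSB, MMP14 and P4HA1 rose and SERPINF1 fell too. The knockdown lowered CTSL, PLAUR and SERPINF1 without Wnt3a and these and CTSK with it (medians -0.27 and -0.45). PLAUR, the urokinase receptor, changed by -0.72 ± 0.15 (adjusted p = 0.00414) without Wnt3a. PDGFC and CTSD were the brightest genes of the lists.

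Relatives of the 8 moved in both directions. Of 14 related genes, 10 were tested, and LY75, PI16, KIT and FLT3 were not. Wnt3a raised CRISPLD2, a CAP protein like PI15, after control siRNA (0.85 ± 0.21, adjusted p = 0.0429; median 0.22), none after CTNNB1 siRNA (3 with an unadjusted p under 0.05; median 0.01), and CRISPLD2, CSF1R and GLIPR1 with FZD8_CRD (median 0.17), and without the third FZD8_CRD array DPP9 rose and PREP fell too. DPP4, the closest relative of FAP, differed by 0.08 ± 0.18 (adjusted p = 0.964) with Wnt3a after control siRNA and was lower with CTNNB1 siRNA and Wnt3a (-1.03 ± 0.18, adjusted p = 0.000595). CSF1R, a receptor kinase related to PDGFRA and PDGFRB, differed with the knockdown by -2.01 ± 0.44 (adjusted p = 0.00499) without and -2.72 ± 0.44 (adjusted p = 0.000298) with Wnt3a. MRC1, the macrophage relative of MRC2, differed with the knockdown by 1.45 ± 0.35 (adjusted p = 0.0107) without and 1.95 ± 0.35 (adjusted p = 0.000884) with Wnt3a, opposite to MRC2, and PREP rose with the knockdown when Wnt3a was present. The list's medians with the knockdown were -0.02 and -0.43, and DPP4 was its brightest gene.

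Markers of the cell types that HepaRG cultures can hold, or be mixed with, were read as whole lists, and their part in the results was not tested. A summed signal is weighted towards its brightest genes. After control siRNA KRT19 averaged 8.09 against 3.05 for KRT7, the next of its list, and KDR 1.55 against -3.19 for CDH5. GSN, among resting fibroblast markers, averaged 5.41 against 2.00 for CLEC3B. The sums of these lists thus give mainly that 1 gene. Of 11 hepatocyte markers 10 were tested, all but CYP2E1, and ALB was the brightest. Their summed signal was 152038, 112770 and 79571 without transfection, 92438, 40416 and 93520 with Wnt3a, 41673, 38321 and 40026 after control siRNA and 27407, 19713 and 26755 after control siRNA with Wnt3a. It was 63561, 48280 and 61109 after CTNNB1 siRNA, 28887, 39708 and 50541 with Wnt3a added, 37514, 25455 and 37322 with FZD8_CRD and 39905, 39027 and 38515 with both. The arrays without transfection had the highest mean and the widest spread, and the sums with Wnt3a were all lower after control siRNA. None of the 10 passed for Wnt3a after control siRNA (3 with an unadjusted p under 0.05; median -0.32) or after CTNNB1 siRNA (2; median -0.64), and ALB differed by -1.15 ± 0.31 (adjusted p = 0.0584) after control siRNA. With FZD8_CRD, APOA1 and TTR rose and APOB fell (median 0.05). The knockdown passed for 0 without Wnt3a (1 with an unadjusted p under 0.05; median 0.64) and raised ALB (1.19 ± 0.31, adjusted p = 0.0156) with it (median 0.45), where LRRC15, FAP, MRC2, PI15 and LINC03033 fell. TF rose and FGB fell too when the third FZD8_CRD array was left out, and the median became 0.35.

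Of 6 biliary and progenitor markers 5 were tested, EPCAM not, with KRT19 the brightest. Their sums without transfection were 28033, 28766 and 22847, with Wnt3a 23918, 28509 and 24693, after control siRNA 29884, 28748 and 27352, with Wnt3a 26549, 28985 and 27474. They were 30496, 31379 and 28317 after CTNNB1 siRNA, 28554, 28147 and 27998 with Wnt3a, 29402, 30233 and 38764 with FZD8_CRD and 38729, 38596 and 34837 with both. Sums overlapped between the siRNA conditions and were highest with FZD8_CRD and Wnt3a and on the third FZD8_CRD array. They give mainly KRT19. Wnt3a passed for 0 of 5 after control siRNA (1 with an unadjusted p under 0.05; median -0.29) and 0 after CTNNB1 siRNA (3; median -0.61), and CDH1 fell with FZD8_CRD (median -0.23). SPP1 rose with the knockdown in both settings, and SOX9 fell with Wnt3a present (medians -0.13 and -0.17). KRT19 rose and SOX9 fell too when the third FZD8_CRD array was left out.

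Of 13 stellate cell and pericyte markers 12 were tested, all but RELN, with NES the brightest. Their sums were 502, 522 and 530 without transfection, 528, 647 and 505 with Wnt3a, 725, 672 and 693 after control siRNA and 670, 735 and 708 with Wnt3a. They were 579, 619 and 543 after CTNNB1 siRNA, 764, 664 and 639 with Wnt3a, 871, 911 and 973 with FZD8_CRD and 1007, 986 and 925 with both. The arrays with FZD8_CRD were above all others. Wnt3a passed for 0 of the 12 after control siRNA (4 with an unadjusted p under 0.05; median 0.05) and for 0 after CTNNB1 siRNA (4; median 0.21, or 0.27 without the gene below background in both conditions), and raised HGF and MCAM with FZD8_CRD (median -0.02). The knockdown lowered DES, MCAM and NGFR and raised KCNJ8 without Wnt3a (median -0.27), and lowered those 3 and raised ABCC9 and KCNJ8 with it (median -0.04). NGFR was well above background on 10 of 24 arrays and on none with CTNNB1 siRNA, so its falls rest on the floor. Of 8 markers of resting fibroblasts 5 were tested, PI16, CD34 and SCARA5 not, with GSN the brightest. DPT rose with Wnt3a after control siRNA (0.92 ± 0.23, adjusted p = 0.0426; median 0.31), none passed after CTNNB1 siRNA (1 with an unadjusted p under 0.05; median 0.04), CLEC3B fell with FZD8_CRD (median 0.10), and DPT and MFAP5 fell with the knockdown in both settings (medians -0.76 and -0.84). Their sums over the 24 arrays ran from 4018 to 6738. LRAT and DPT fell too with FZD8_CRD when the third array without Wnt3a was left out.

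Of 6 endothelial markers 5 were tested, STAB2 not, with KDR the brightest and sums of 322, 331 and 293 after control siRNA, 227, 236 and 214 with Wnt3a, 361, 362 and 354 after CTNNB1 siRNA and 293, 364 and 346 with Wnt3a. They were 347, 422 and 346 without transfection, 286, 225 and 343 with Wnt3a, 185, 167 and 98 with FZD8_CRD and 82.9, 78.3 and 94.7 with both. All 6 sums with FZD8_CRD lay below the others, and these sums give mainly KDR. None passed for Wnt3a after control siRNA (2 with an unadjusted p under 0.05; median 0.00) or after CTNNB1 siRNA (1; median 0.15), KDR fell with FZD8_CRD (median 0.06 without TEK, which passed the filter only through the condition with Wnt3a and is not counted), and PECAM1 fell with the knockdown without Wnt3a (median -0.01), while 0 passed with it (2; median 0.02). Without TEK, below background in both conditions compared, the endothelial medians were 0.05 for Wnt3a after control siRNA and 0.06 for the knockdown with Wnt3a. Of 6 leukocyte markers 4 were tested, CD163 was not and LYZ had no probe, with CD68 the brightest. Their sums were 675, 563 and 417 without transfection, 565, 520 and 585 with Wnt3a, 496, 528 and 441 after control siRNA and 483, 513 and 522 with Wnt3a. They were 338, 286 and 279 after CTNNB1 siRNA, 296, 309 and 348 with Wnt3a, 370, 325 and 373 with FZD8_CRD and 397, 368 and 418 with both. The sums were lower on every array with CTNNB1 siRNA than with control siRNA. None passed for Wnt3a after control siRNA (0 with an unadjusted p under 0.05; median 0.10) or CTNNB1 siRNA (0; median -0.17), CD68 rose with FZD8_CRD (median -0.09), and CD14 fell with the knockdown in both settings (medians -0.05 and -0.08). Without the third FZD8_CRD array CD14 fell too. With that array left out, the medians with FZD8_CRD of the other lists but the endothelial one were 0.52 for growth factors, 0.53 for collagen uptake, 0.21 for relatives, 0.00 for Wnt genes, -0.35 for biliary, -0.02 for stellate cell, 0.03 for resting fibroblast and -0.25 for leukocyte markers. In these and the other lists, 114 of 114 calls, TEK and NKD1 included, had the same direction in each of 3 slides.

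**Figure D5:**
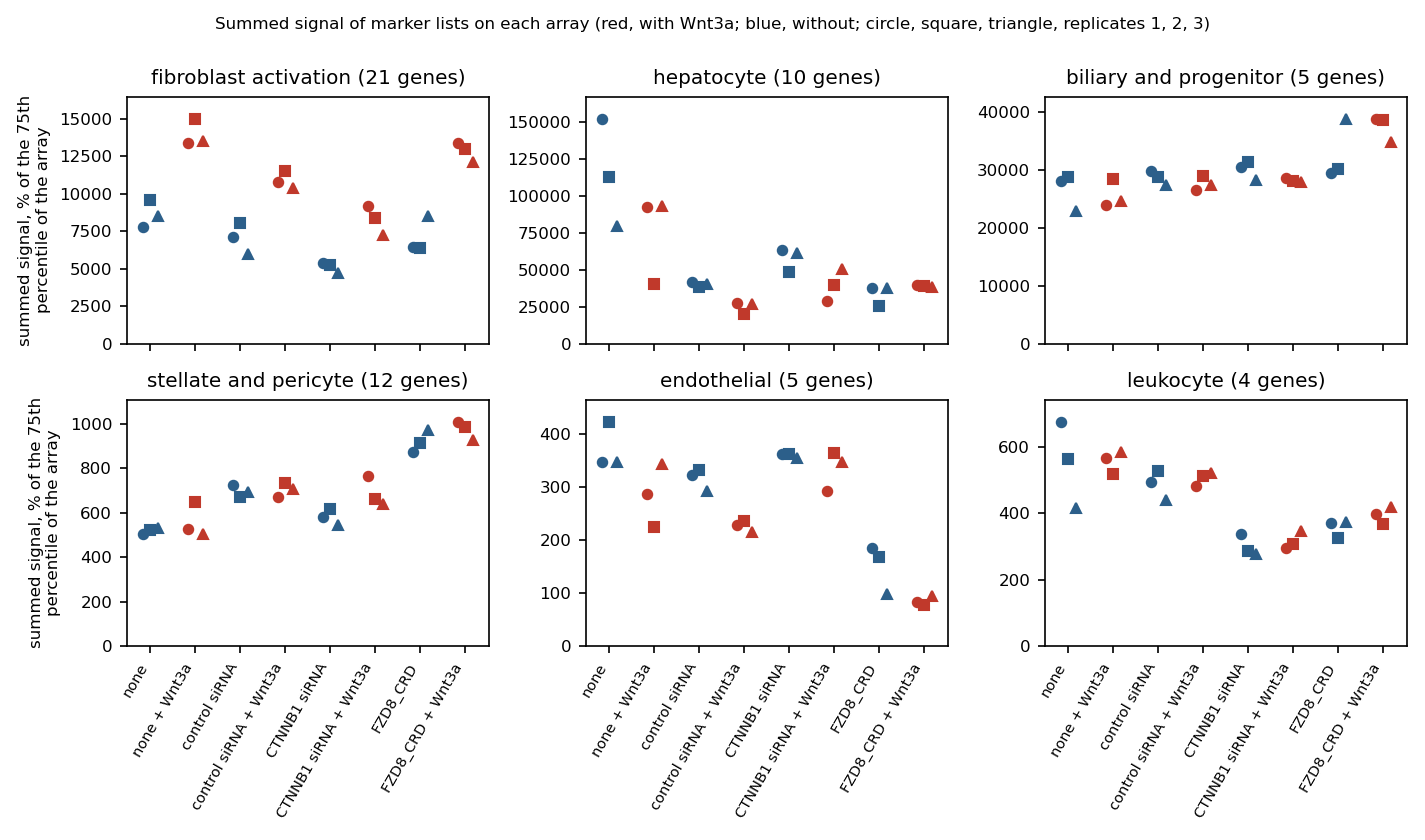
Each panel plots the summed signal of 1 marker list on the 24 arrays by condition, as a percent of the 75th percentile of the array, in red with Wnt3a and in blue without. Fibroblast activation sums with Wnt3a and control siRNA, 10361 to 11522, all exceed those without Wnt3a, 5946 to 8050.

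Over the 24 arrays, with each slide's mean taken off, correlations between the 5 genes that rose with Wnt3a are a description only. The arrays include those on which the genes were selected for that rise, so positive values were built in, and PI15 was well above background on 11 of the 24. LRRC15 had a Pearson correlation of 0.89 with FAP, 0.85 with PI15, 0.85 with MRC2 and 0.84 with LINC03033. The lowest value among the 5 was 0.56, for PI15 and LINC03033. PDGFRA lay between -0.36 and 0.45 with these genes.

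The named genes most like each of the 8, by the same correlation over 24 arrays, were for LRRC15 PRUNE2 (0.944), ZNF503-AS2 (0.937), IL1R1 (0.937), and for FAP FBN1 (0.962), F3 (0.94), DPP9 (0.938), among which FBN1 is the fibrillin of elastic fibres, F3 is tissue factor, and DPP9 is a relative of FAP. For MRC2 they were SPARC (0.959), SLIT3 (0.955), SLC12A8 (0.955), of which SPARC is also on the fibroblast activation list. For PI15 they were HMCN1 (0.965), KIF26B (0.943), PODNL1 (0.937), and for LINC03033 GCNT1 (0.974), LOC93429 (0.973), STXBP6 (0.969). PDGFRA was most like PANTR1 (0.949), TEF (0.945), COL18A1 (0.944), and PDGFRB, mostly at the floor, like CFD (0.748), COG7 (0.746), GAPDH (0.73). For THY1, at the floor throughout, none could be named.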

How the data were processed

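The 8 genes and the gene lists were chosen with earlier results of these data known. Genes of 3 lists that are not reported here were taken out of those lists after the results were known, so the lists' counts, medians and sums are over the rest. Intensity values were the processed signals, background-subtracted and detrended by Agilent Feature Extraction (10.7.1.1 per the file headers, 10.7.3.1 per the labels), for 62976 spots on each of 24 arrays. The other columns used were the software's flags for detection, outliers and saturation, 0 or 1 per the file headers. The deposited value table held log2 values of 25443 probes that the authors had scaled to the 75th percentile and centred on each probe. Its scale and centring were set against the scanner values (r from 0.926 to 0.992, slopes from 0.885 to 1.02 over the arrays), its column medians ran from -0.050 to 0.019, and its exact filter stays unknown. It was used only as an alternative.

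Control spots and outlier spots were left out. Signals were divided by the 75th percentile of the 61657 non-control spots of the array (intensities of 643 to 934), floored, put on the log2 scale and averaged per probe. Of 50683 probes, 28174 matched a RefSeq transcript, naming 20503 genes. Probes detected, by the flag, on 3 of 3 arrays in at least 1 condition were kept (31062), and the one with the highest mean signal stood for a gene, giving 24643 genes, 8646 of them without a symbol. The 53 missing values among kept probes were dropped from the fits. R 4.3.3 with limma 3.58.1 (lmFit on 8 condition means, eBayes with a trend) gave p-values, adjusted over all genes by Benjamini-Hochberg, with calls under 0.05. The fit was tested on simulated data. Figures used Python 3.11.15 and matplotlib 3.10.9. Named were the 8 genes, CTNNB1, the called and the brightest genes of each list, and for each gene the 3 with the highest r over 24 arrays.

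Alternatives were quantile normalization, scaling to 7 spike-in probes, the deposited table, normexp (offset 50) on median signals, a floor of 1 intensity unit, no filter, detection on all arrays, the mean of a gene's probes, outliers kept, the slide as a block, fits of only the conditions compared, unadjusted p under 0.01 with fold changes above 1.5 or below 0.7, and leaving out each replicate and each array. The response without transfection, and comparisons sharing its arrays, were described only.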

Additional observations from a re-analysis of the deposited data

How the results depend on the processing

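After control siRNA, 5 of 7 genes were called as responding to Wnt3a, 4 with the deposited table (of 5 tested), a floor of 1 intensity unit and no filter, 3 (FAP, MRC2 and LINC03033, of 3 tested) with detection required on all arrays, and 0 to 5 when arrays were left out. After CTNNB1 siRNA the count of 2 became 0 with quantile normalization, spike-in scaling, the deposited table, normexp, no filter and a fit of only the conditions compared. It became 1 with detection on all arrays (MRC2) and with the mean of a gene's probes (LRRC15), 3 with unadjusted p and fold thresholds (FAP too), and 0 to 3 when arrays were left out. With FZD8_CRD the count of 4 became 0 in a fit of only the conditions compared, 3 of 3 tested with detection on all arrays, 5 with a floor of 1 intensity unit, where PI15 was added from arrays below background, and 0 to 4 when arrays were left out. The knockdown calls became 2 without and 3 with Wnt3a under detection on all arrays, where 3 genes were tested. Without Wnt3a the table's count of 5 holds PDGFRB, which passed the filter only through the brighter condition; it was 4, without PDGFRB, in many alternatives, and 6, with FAP, in a fit of only the conditions compared and with unadjusted p and fold thresholds. FAP was also called without replicate 3. With Wnt3a the count of 5 became 4, without FAP, when replicate 1 or replicate 2 was left out. For the difference between both responses the count of 0 became 1, PI15, in a fit of only the conditions compared and with unadjusted p and fold thresholds. Its knockdown arrays lay at the floor. Calls over all genes moved too, from 4 to 1329 after control siRNA, 0 to 314 after CTNNB1 siRNA and 0 to 5327 with FZD8_CRD. For the knockdown they ran from 171 to 4321 without and 588 to 3845 with Wnt3a, and for the difference between responses from 0 to 140. A gained or lost call is thus not read as a result about the 8 genes. Apart from detection on all arrays, which tests fewer genes, the cause was not tested.

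Signs turned for values near 0 that had not been called. PDGFRA differed by -0.046 between the siRNAs with Wnt3a and by -0.20 in the difference of responses under spike-in scaling, and by -0.12 between the siRNAs without Wnt3a under normexp. When arrays were left out, PDGFRA ran from -0.0044 to 0.28 with Wnt3a after control siRNA, from -0.027 to 0.17 and from -0.10 to 0.50 for the knockdown without and with Wnt3a, and from -0.081 to 0.43 in the difference of responses, where MRC2 ran from -0.17 to 0.088. The cause was not tested. Of 746 values of single genes over all alternatives, 649 kept their direction and their side of the threshold, 75 lost a call, 5 gained one and 17 turned sign. The knockdown calls of LRRC15, MRC2, LINC03033 and PI15 held in each alternative that could be run for them. PDGFRA, PDGFRB and THY1 were not in the deposited table.

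Spike-in scaling moved the median of all genes to 0.18 for Wnt3a after control siRNA, to -0.21 for the knockdown with Wnt3a and to -0.28 for the difference of responses. Signal over background limits PI15, PDGFRA, PDGFRB and THY1, and LRRC15 after CTNNB1 siRNA.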
